A study of Mus musculus with 8 samples.

Results

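The genes described here take glucose from the cell surface to exported lactate, together with transcripts known to respond to low oxygen. They were chosen by name: 40 gene symbols were looked up in the table of normalized read counts, and 39 of the 18877 symbols in that table matched. Expression of Car9 was not analysed here, and Car9 entered only the counts of promoters. A mean of at least 10 normalized reads over the 8 libraries, the minimum for a test, was reached by 36 of the 39 genes and missed by Aldoc, Pgam2 and Ankrd37.

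Activated muscle stem cells (ASCs), which are muscle stem cells that an injury has brought out of quiescence, gave 4 wild-type and 4 mfn2-/- libraries. All mice carried a mito-Dendra2 allele, a fluorescent mark of mitochondria, under the control of Pax7-Cre(ERT2), a tamoxifen-dependent recombinase made in muscle stem cells. In the mfn2-/- group this recombinase also acted on a floxed Mfn2 allele, which encodes the mitochondrial outer membrane protein mitofusin 2. Both groups received tamoxifen (75 mg/kg, 5 daily doses) as adults and then barium chloride (50 uL at 1.2%) in the tibialis anterior muscle, and living CD34- Dendra2+ cells were sorted from that muscle 2 days after the injury. The labels do not say whether each library came from its own animal, so p-values measure the spread between these libraries, part of which may be technical.

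Glycolysis splits glucose into pyruvate in the cytosol and yields ATP without oxygen. Lactate dehydrogenase turns pyruvate into lactate, which restores the NAD+ that glycolysis consumes, and monocarboxylate carriers move lactate across the plasma membrane. When oxygen is scarce the factor HIF1A is no longer degraded, joins its partner ARNT and activates genes for glucose uptake, glycolysis, lactate export, new vessels and iron uptake, by binding a short motif with the core ACGTG or GCGTG. In dividing cells, including activated muscle stem cells, glycolysis also supplies building blocks for growth.

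The libraries held 1880464 to 7508215 reads assigned to genes, and 1 read was worth 0.534 to 2.27 normalized reads. Wild-type replicate 1 and mfn2-/- replicate 4 were the shallowest, and in the latter 9 of the 39 genes had 3 reads or fewer. Reads from Y-linked genes numbered 807 to 2336 in wild-type replicates 3 and 4 and in mfn2-/- replicates 1 and 2, and 0 in the other 4 libraries, so each change was also computed within each kind of library, with 2 libraries a group. Since these kinds split each group into its lower and higher replicate numbers, a difference between kinds cannot be told apart from one between replicates 1 and 2 and replicates 3 and 4. Mfn2 itself had 202 to 245 normalized reads in wild-type libraries and 104 to 172 in mfn2-/- libraries, with no overlap (log2 change -0.88, limma adjusted p = 0.0848, two-sided exact permutation p = 0.0286, the smallest that 4 against 4 libraries can give).

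Of the 36 tested genes, 5 rose in mfn2-/- ASCs and 0 fell at an adjusted p under 0.05, by limma on log2(normalized reads + 1) with Benjamini-Hochberg adjustment over all 11754 genes tested. They were Pfkp, Ldha, Slc16a3, Ndrg1 and Tfrc: a phosphofructokinase, the lactate dehydrogenase of muscle, a lactate exporter, a stress-responsive gene and the transferrin receptor. These 5 are 13.9% of the tested members, beside 3.99% of all tested genes that were called higher and 6.36% called lower. The edgeR and DESeq2 tests on whole reads each called 5 members higher and 0 lower as well. In 8 of the 36 (22.2%) every mfn2-/- library lay above every wild-type library, against 7.36% of all tested genes, and in 0 did every mfn2-/- library lie below, against 12.2% of all tested genes.

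The direction over the whole set was uneven. The log2 change was positive for 27 members and negative for 9, with a median of 0.35, while the median of all tested genes was -0.16 and 44.2% of them were positive. The members' median was 0.41 in the libraries with Y-linked reads and 0.37 in those without. The same sign in both was found for 21 of the 36, and the share over all genes was not computed. Together the 39 genes made up 0.242% to 0.287% of the normalized reads of a wild-type library and 0.371% to 0.434% of those of an mfn2-/- library, so the groups did not overlap in this sum either. The count of 5 was 3 without mfn2-/- replicate 1, 3 without mfn2-/- replicate 2 and 2 without mfn2-/- replicate 3, the library whose absence left only Ldha and Ndrg1. Without limma's intensity trend only Slc16a3 was called, and the limma adjusted p was 0.0531 for Pfkp, 0.0574 for Tfrc, 0.0626 for Ndrg1 and 0.0969 for Ldha.

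**Figure D1:**
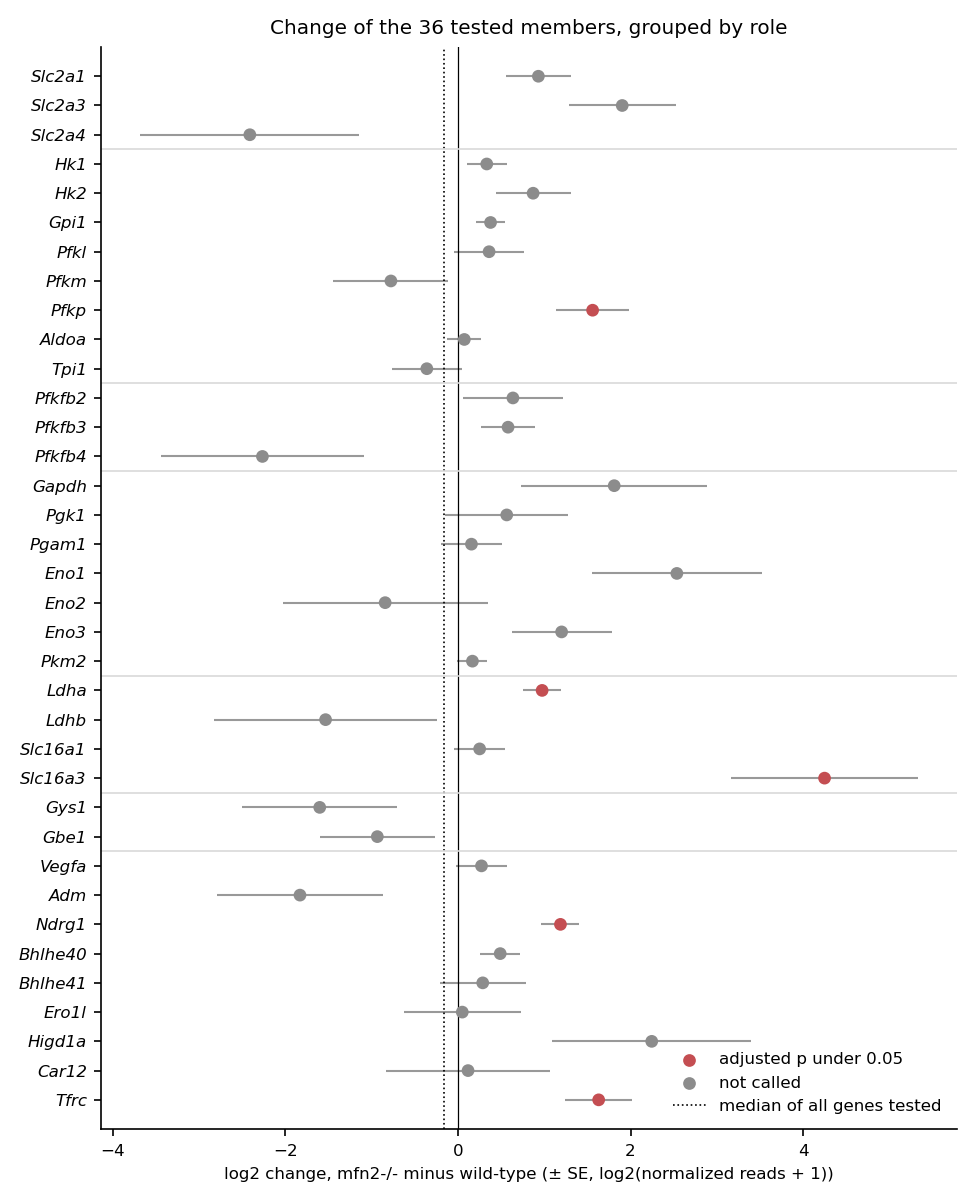
Log2 change of each of the 36 tested genes between mfn2-/- and wild-type ASCs (x axis, difference of log2(normalized reads + 1), with its standard error as a bar), grouped by role from glucose carriers at the top to hypoxia targets at the bottom. Red points mark the 5 genes with an adjusted p under 0.05, and the dotted line is the median of all tested genes at -0.16. The red points lie between 0.98 for Ldha and 4.25 for Slc16a3.

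The sorted cells did not hold the same mixture of transcripts in both groups. Of 24 markers of fibroadipogenic cells and fibroblasts, 22 fell in mfn2-/- ASCs (median log2 change -5.20), and their summed level was 240167 to 302848 normalized reads in wild-type libraries and 9685 to 16168 in mfn2-/- libraries, led in wild-type by the collagen genes Col1a1, Col1a2 and Col3a1. All 12 tendon markers fell, from a sum of 46156 to 75299 to one of 544 to 830 (most abundant in wild-type: Fmod, Thbs4 and Col12a1). Of 16 markers of muscle stem cells and myoblasts, 5 rose and 0 fell, and their sum went from 14495 to 19329 in wild-type to 34834 to 48677 in mfn2-/- libraries (most abundant in wild-type: Sdc4, Des and Notch3). The median change of those 16 was 0.18: the abundant Sdc4 rose by 2.08, while the changes of Pax7 (0.10), Myf5 (0.07), Myog (-1.37) and Itga7 (-0.87) did not pass. In bulk RNA, fewer cells of a type and less RNA per cell cannot be told apart, and the part these markers have in the values of the glycolytic genes was not tested. None of the markers in these 3 lists was at 0 in a whole group. Of the tested markers of other cell types, 0 of 12 endothelial, 0 of 7 macrophage and 0 of 2 erythroid genes were called, 0 neutrophil markers reached the minimum, 1 of 8 mural genes rose and 3 fell (sums of 2672 to 3841 in wild-type and 1428 to 2009 in mfn2-/-), 2 of 7 Schwann cell genes fell, and 2 of 19 myofibre genes rose.

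The promoters of the genes that rose are shown because they hold the core motif that HIF1A binds in other settings. The stretches are the 250 bases before the first listed RefSeq start (GRCm38.p6), 5′ to 3′ along the gene, with every ACGTG or GCGTG on either strand in capitals (CACGT or CACGC where the motif lies on the opposite strand). Ndrg1 was not in the promoter table. The sequence of Pfkp is chr13:6648772-6649021 on the minus strand, that of Ldha chr7:46845554-46845803 on the plus strand, that of Slc16a3 chr11:120948817-120949066 on the plus strand and that of Tfrc chr16:32608646-32608895 on the plus strand.
Pfkp: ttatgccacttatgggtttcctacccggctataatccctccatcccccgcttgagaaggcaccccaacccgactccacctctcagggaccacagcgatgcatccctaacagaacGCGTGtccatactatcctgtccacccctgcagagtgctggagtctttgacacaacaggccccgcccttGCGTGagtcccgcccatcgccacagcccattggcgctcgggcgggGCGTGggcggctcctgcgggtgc
Ldha: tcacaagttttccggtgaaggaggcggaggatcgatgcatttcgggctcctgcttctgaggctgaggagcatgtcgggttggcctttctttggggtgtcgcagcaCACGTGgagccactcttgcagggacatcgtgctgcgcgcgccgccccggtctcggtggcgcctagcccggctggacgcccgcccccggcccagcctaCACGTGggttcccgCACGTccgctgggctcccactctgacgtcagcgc
Slc16a3: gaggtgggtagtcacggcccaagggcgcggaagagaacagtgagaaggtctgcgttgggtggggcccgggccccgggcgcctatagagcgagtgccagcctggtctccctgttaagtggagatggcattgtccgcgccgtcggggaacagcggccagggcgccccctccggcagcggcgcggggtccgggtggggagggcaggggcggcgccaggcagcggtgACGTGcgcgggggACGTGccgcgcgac
Tfrc: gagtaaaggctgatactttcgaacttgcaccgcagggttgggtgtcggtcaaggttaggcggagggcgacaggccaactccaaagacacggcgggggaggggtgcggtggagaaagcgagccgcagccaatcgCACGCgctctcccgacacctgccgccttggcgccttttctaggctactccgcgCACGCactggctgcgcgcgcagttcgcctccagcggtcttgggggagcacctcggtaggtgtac

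Pfkp had 3 such places, 136, 68 and 23 bases before the start. Ldha also had 3, at 145, 48 and 34 bases, and the first and second of them are the palindrome CACGTG, which is read by many other factors as an E-box. Slc16a3 had 2, at 27 and 14 bases, and Tfrc had 2, at 117 and 64 bases. RefSeq lists a second start for Ldha and for Tfrc, for which the sequence is not shown.

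The motif is common in this set and is not particular to the genes that rose. It stood in 25 of the 36 members with a listed promoter (69.4%), against 10431 of 27025 genes (38.6%), and the members' promoters also had more G and C, with a median of 59.2% against 52.0%. It was in the promoters of all 4 genes that rose and have one listed, and in 18 of 28 (64.3%) of those that were tested and not called. Genes with the motif and no call included the glucose carrier Slc2a1, with 2 places, and the lactate carrier Slc16a1, with 3. A match says only that these letters are in the window, and binding was not measured here.

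Uptake of glucose is carried out by Slc2a1, the carrier of most cells, Slc2a3, a high-affinity carrier, and Slc2a4, the insulin-responsive carrier of muscle and fat. Slc2a3 had 27.3, 143, 16.3 and 84.9 normalized reads in wild-type replicates 1 to 4 and 171, 239, 177 and 161 in mfn2-/- replicates 1 to 4. Every mfn2-/- library was above every wild-type library, yet wild-type values ranged so widely that the change of 1.90 (SE 0.62) did not pass (limma adjusted p = 0.0701), and it passed without wild-type replicate 2 (2.42, limma adjusted p = 0.0266). Slc2a1 had 161, 239, 85.7 and 88.1 normalized reads in wild-type libraries and 254, 207, 329 and 227 in mfn2-/- libraries, with overlap through wild-type replicate 2 alone. Its log2 change was 0.93 (SE 0.37 and limma adjusted p = 0.138), or 1.39 in libraries with Y-linked reads and 0.48 in the others. Slc2a4 was weak, at 5.34 to 86.4 normalized reads in wild-type and 0 to 15.8 in mfn2-/- libraries, with a log2 change of -2.41 (SE 1.27 and limma adjusted p = 0.266) that was 0.11 with Y-linked reads and -4.94 without.

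Hexokinases trap glucose in the cell as glucose 6-phosphate. Hk2, the inducible form of muscle and growing cells, had 1130.3, 1394, 353 and 341 normalized reads in wild-type libraries and 858, 921, 1782 and 1514 in mfn2-/- libraries. The wild-type values fell into a high pair, without Y-linked reads, and a low pair, with them, and the high pair overlapped the mfn2-/- range. Within each kind every mfn2-/- library was above every wild-type library, with a change of 1.35 with Y-linked reads and 0.39 without. Hk1, the form found in most tissues, had 405, 332, 459 and 379 in wild-type libraries and 383, 434, 545 and 652 in mfn2-/- libraries, also with overlap. Neither passed: the change was 0.87 (SE 0.43, limma adjusted p = 0.237) for Hk2 and 0.33 (SE 0.23, limma adjusted p = 0.407) for Hk1. Among the alternative fits, Hk2 was called higher only with Y-linked reads as a term and with library weights.

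Phosphofructokinase commits glucose to glycolysis and has a platelet (Pfkp), a liver (Pfkl) and a muscle (Pfkm) isoform. Pfkp had 45.5, 64.3, 53.9 and 102 normalized reads in wild-type and 200.03, 207, 253 and 121 in mfn2-/- libraries. The groups did not overlap, although mfn2-/- replicate 4 was only just above wild-type replicate 4. The mean rose from 66.3 ± 24.7 (SD, n = 4) to 195 ± 54.7, which is 2.94-fold, and the log2 change was 1.56 (SE 0.42 and limma adjusted p = 0.0322), with 1.45 in libraries with Y-linked reads and 1.67 in those without. The call of Pfkp was close to the threshold: the limma adjusted p was 0.0534, 0.0548 and 0.0806 without wild-type replicates 1, 2 and 3, and 0.0867, 0.0933 and 0.109 without mfn2-/- replicates 1, 2 and 3. With other annotated genes Pfkp shares 17.1% of its 50-base windows, all with 1 gene that is no pseudogene.

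The other phosphofructokinases did not pass. Pfkl had 109, 87.1, 125 and 106 normalized reads in wild-type and 140.0, 118, 248 and 84.3 in mfn2-/- libraries, and Pfkm had 36.4, 279, 109 and 128 in wild-type and 119, 106, 43.5 and 29.3 in mfn2-/- libraries. Both overlapped between groups, with log2 changes of 0.36 (SE 0.41, limma adjusted p = 0.626) for Pfkl and -0.78 (SE 0.67, limma adjusted p = 0.507) for Pfkm. Within a library, the log2 ratio of Pfkp to Pfkm (each as normalized reads + 1) went from -0.78 ± 1.03 (SD, n = 4) in wild-type to 1.56 ± 0.84 in mfn2-/- libraries. The highest wild-type ratio was 0.31 and the lowest mfn2-/- ratio 0.75, so these ratios did not overlap. Per kb of the longest annotated transcript, Pfkm had the highest mean of the 3 isoforms in wild-type (48.0 ± 35.4 normalized reads per kb, against 28.6 ± 4.16 for Pfkl and 16.0 ± 5.96 for Pfkp) and Pfkp in mfn2-/- ASCs (47.1 ± 13.2, against 39.5 ± 18.9 for Pfkl and 25.8 ± 15.5 for Pfkm). Neighbours in both orders lay within 1 SD of each other, except Pfkl above Pfkp in wild-type.

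The remaining enzymes of the upper steps did not pass. Gpi1, which isomerises glucose 6-phosphate, had one of the tightest patterns, with 664, 689, 616 and 644 normalized reads in wild-type libraries and 801, 873, 869 and 852 in mfn2-/- libraries. All mfn2-/- libraries were above all wild-type libraries, but the change of 0.38 (SE 0.17, 1.30-fold) had a limma adjusted p of 0.188, and 25.3% of its 50-base windows recur in other annotated genes. Aldoa, the muscle aldolase and the most abundant member per kb in both groups (811 ± 67.7 normalized reads per kb in wild-type, 868 ± 181 in mfn2-/-), changed by 0.074 (SE 0.20, limma adjusted p = 0.852). Tpi1, the triose isomerase, changed by -0.36 (SE 0.41, limma adjusted p = 0.625). Aldoc, the brain aldolase, was above 0 in 1 of 8 libraries, at 10.6 normalized reads in wild-type replicate 3.

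The PFKFB enzymes make and break fructose 2,6-bisphosphate, the strongest activator of phosphofructokinase. Pfkfb3, which mostly makes it and is a known hypoxia target, had 844, 931, 855 and 755 normalized reads in wild-type and 2246, 1819, 840.1 and 740.3 in mfn2-/- libraries. Both mfn2-/- libraries with Y-linked reads were far above every wild-type library, and the other 2 lay among or below them. The change over all libraries was 0.58 (SE 0.32, limma adjusted p = 0.280), made of 1.33 with Y-linked reads and -0.17 without, and the difference between these kinds was 1.498 (SE 0.26, limma adjusted p = 0.0219 for the interaction). Pfkfb2 and Pfkfb4 were weaker and did not pass, with log2 changes of 0.64 (SE 0.58) and -2.27 (SE 1.17) and limma adjusted p of 0.541 and 0.256.

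None of the 7 tested genes of the lower steps, from glyceraldehyde phosphate to pyruvate, passed in either direction. Pgk1, the first ATP-making enzyme, had 298, 133, 662 and 441 normalized reads in wild-type libraries and 163, 192, 807 and 2201 in mfn2-/- libraries. In libraries with Y-linked reads the mfn2-/- values were lower, by -1.61, and in those without they were higher, by 2.74, and the difference of -4.34 (SE 0.70) had a limma adjusted p of 0.0148. Over all libraries the change was 0.57 (SE 0.71, limma adjusted p = 0.669). Eno1, the enolase of most tissues, had 2.27, 5.19, 38.4 and 19.8 normalized reads in wild-type and 32.0, 55.3, 83.3 and 119 in mfn2-/- libraries, with overlap and a change of 2.54 (SE 0.99, limma adjusted p = 0.128).

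Several of these genes have processed copies in the genome that can take or give reads. Of the 50-base windows of Gapdh, the glyceraldehyde phosphate dehydrogenase, 82.5% also occur in annotated pseudogenes (209 of them), and the shares of windows found in any other gene were 72.2% for Eno1, 68.0% for Pgk1, 41.5% for Pgam1 and 34.4% for Pkm2. Their counts are therefore uncertain, and Gapdh had only 1.04 to 80.1 normalized reads in wild-type and 34.8 to 190.1 in mfn2-/- libraries (1.81, SE 1.08, limma adjusted p = 0.330). Pkm2, the name in the table for the pyruvate kinase gene Pkm, had 1277 ± 127 (SD, n = 4) normalized reads in wild-type libraries and 1438 ± 186 in mfn2-/- libraries (0.17, SE 0.17, limma adjusted p = 0.595). Pgam1, a phosphoglycerate mutase, changed by 0.16 (SE 0.35), Eno2, the neuronal enolase, by -0.84 (SE 1.19) and Eno3, the muscle enolase, by 1.20 (SE 0.58), with limma adjusted p of 0.822, 0.709 and 0.220. Pgam2, the muscle mutase, ranged from 0 to 27.3 normalized reads and was not tested.

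**Figure D2:**
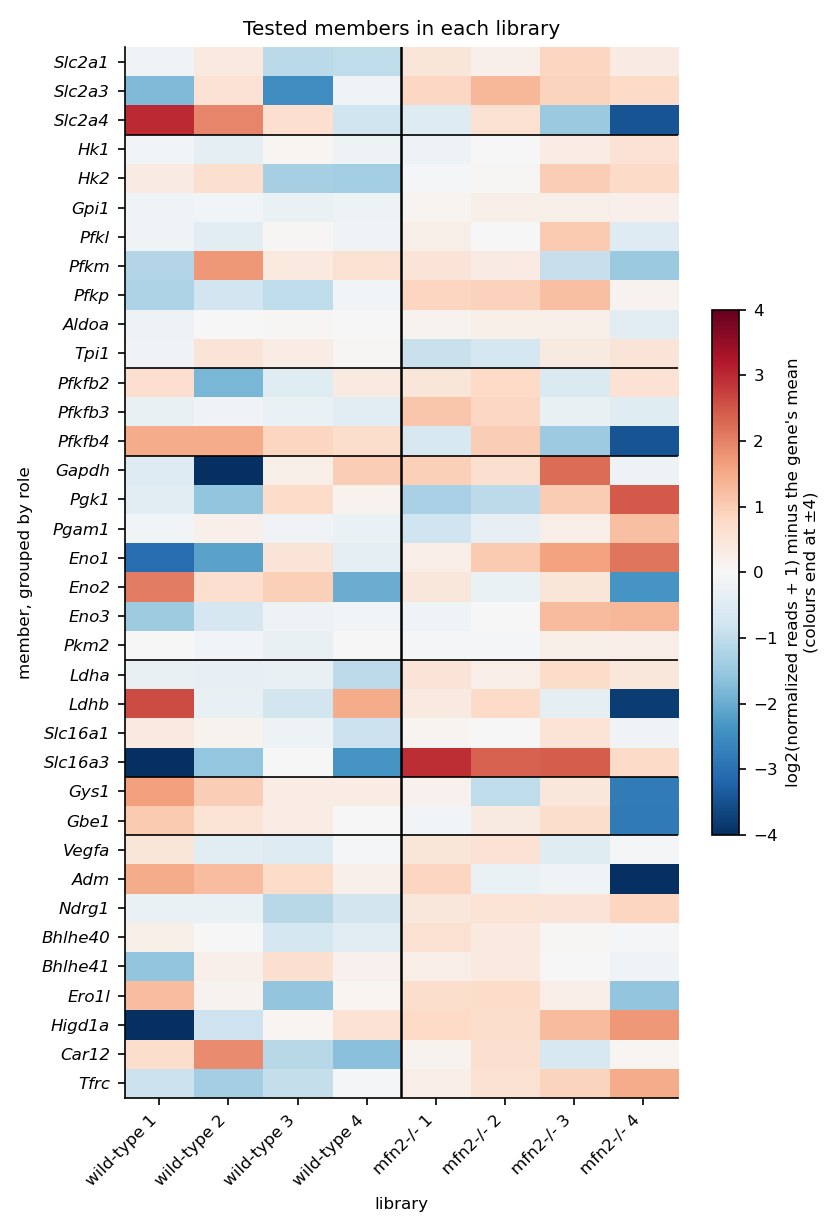
Each tested gene (y axis, in order of role) in each library (x axis, wild-type to the left of the vertical line and mfn2-/- to the right), coloured by log2(normalized reads + 1) minus the mean of the gene over the 8 libraries, with colours ending at 4 in either direction. Slc16a3, Pfkp, Ndrg1, Ldha and Tfrc are redder in all mfn2-/- libraries than in any wild-type library, while Pgk1, Pfkfb3 and Slc2a4 differ more within a group.

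Lactate is formed by lactate dehydrogenase, a tetramer of A subunits (Ldha), which favour lactate formation, and B subunits (Ldhb), which favour its use. Ldha had 562, 551, 561 and 337 normalized reads in wild-type libraries and 996, 821, 1136 and 944 in mfn2-/- libraries. The groups were well apart, with 562 the highest wild-type and 821 the lowest mfn2-/- value, and wild-type replicate 4 stood below its group. The mean rose 1.94-fold, from 503 ± 111 (SD, n = 4) to 974 ± 131, and the log2 change of 0.98 (SE 0.22) had a limma adjusted p of 0.0129. It was 1.06 in libraries with Y-linked reads and 0.90 in those without, and it passed without any 1 library, with a largest limma adjusted p of 0.0453 without mfn2-/- replicate 3. Of the windows of Ldha, 16.6% recur in 14 pseudogenes.

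Ldhb was weak and irregular, at 84.1, 10.4, 7.35 and 37.9 normalized reads in wild-type and 16.7, 22.9, 9.58 and 0 in mfn2-/- libraries. These ranges overlapped, and the change of -1.53 (SE 1.29) had a limma adjusted p of 0.498. The log2 ratio of Ldha to Ldhb was 4.38 ± 1.70 (SD, n = 4) in wild-type and 6.89 ± 2.11 in mfn2-/- libraries, again with overlap, and 27.0% of the windows of Ldhb recur in 1 pseudogene.

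MCT4, encoded by Slc16a3, mainly exports lactate, and MCT1, encoded by Slc16a1, carries it in either direction. Slc16a3 had 0, 7.26, 22.9 and 3.74 normalized reads in wild-type and 187, 122, 127 and 40.3 in mfn2-/- libraries, which are 0, 7, 28 and 7 reads against 280, 154, 173 and 22. No wild-type library held more than 28 reads, and the groups did not overlap, with mfn2-/- replicate 4 the lowest of its group. The mean went from 8.47 ± 10.05 (SD, n = 4) to 119 ± 60.1, a 14.1-fold difference that rests on few wild-type reads. On the log2 scale the change was 4.25 (SE 1.08, limma adjusted p = 0.0250), with 3.83 in libraries with Y-linked reads and 4.66 in those without, and it was the largest among the members. The call was lost without wild-type replicate 4 (limma adjusted p = 0.0561) and without mfn2-/- replicates 1, 2 and 3 (0.0867, 0.0767 and 0.0778), at changes of 3.97 to 4.18. None of the 50-base windows of Slc16a3 recurs in another annotated gene.

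Slc16a1 had 416, 349, 274 and 174 normalized reads in wild-type libraries and 337, 314, 464 and 284 in mfn2-/- libraries. Its groups overlapped, with 2 wild-type libraries below every mfn2-/- library and 1 mfn2-/- library above every wild-type library, and the change was 0.25 (SE 0.30, limma adjusted p = 0.645). The log2 ratio of Slc16a3 to Slc16a1, on the same scale of normalized reads + 1, was -5.71 ± 2.17 (SD, n = 4) in wild-type and -1.71 ± 0.83 in mfn2-/- libraries, without overlap. Per kb of transcript, Slc16a1 remained the higher of the carriers, at 68.5 ± 23.5 against 1.95 ± 2.32 normalized reads per kb in wild-type and 79.0 ± 17.9 against 27.5 ± 13.9 in mfn2-/- ASCs.

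**Figure D3:**
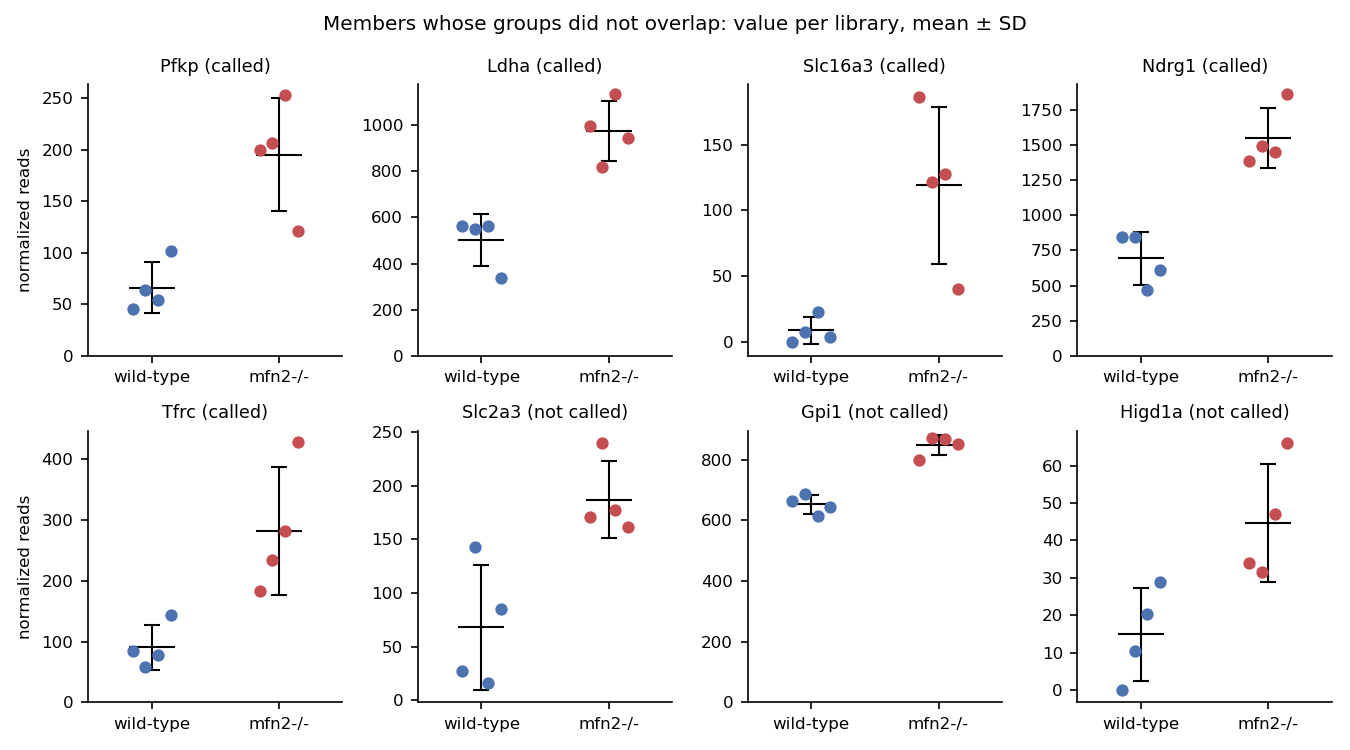
Normalized reads (y axis, linear from 0) in each of the 4 wild-type (blue) and 4 mfn2-/- (red) libraries for the 8 genes whose groups did not overlap, with the mean as a horizontal line and the SD as a bar. All red points lie above all blue points in each panel, with the narrowest gap for Higd1a (28.8 and 31.6) and the closest replicates for Gpi1.

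**Figure D4:**
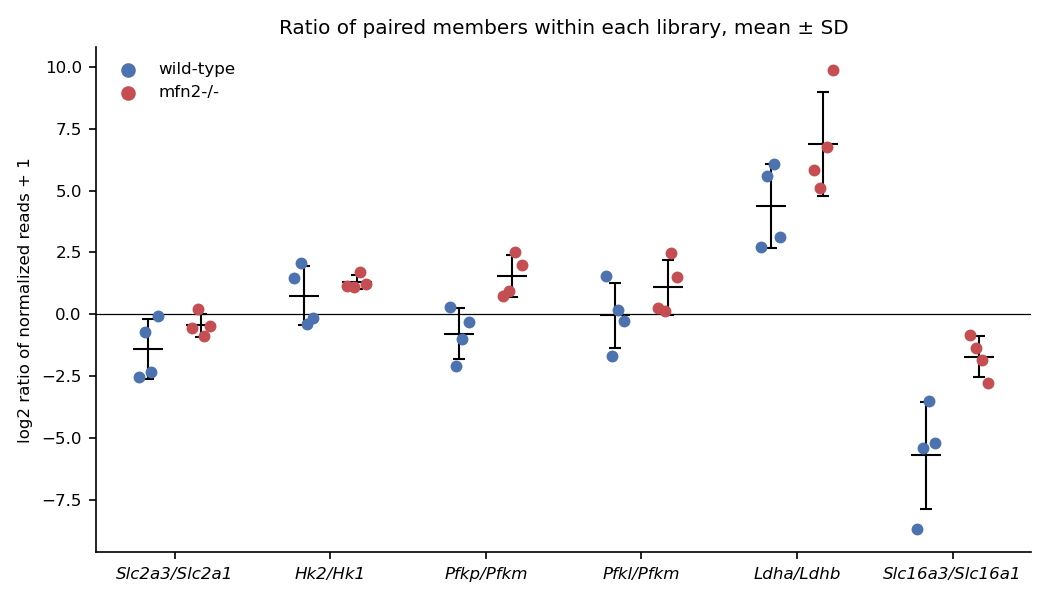
Log2 ratio of normalized reads + 1 (y axis) of 6 pairs of members within each wild-type (blue) and mfn2-/- (red) library, with the mean as a line and the SD as a bar. The ratios Pfkp/Pfkm and Slc16a3/Slc16a1 do not overlap between groups, while Slc2a3/Slc2a1, Hk2/Hk1, Pfkl/Pfkm and Ldha/Ldhb do.

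For glucose uptake and phosphorylation the isoform ratios overlapped. The log2 ratio of Slc2a3 to Slc2a1 was -1.41 ± 1.21 (SD, n = 4) in wild-type and -0.44 ± 0.46 in mfn2-/- libraries, and that of Hk2 to Hk1 was 0.75 ± 1.20 and 1.29 ± 0.28. In both pairs the spread was wider in wild-type. The ratio of Pfkl to Pfkm was -0.047 ± 1.33 and 1.09 ± 1.11.

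Glycogen is the stored form of glucose, made by glycogen synthase (Gys1) and the branching enzyme (Gbe1). Gys1 had 39.0 to 100.1 normalized reads in wild-type and 3.67 to 43.5 in mfn2-/- libraries, and Gbe1 had 109 to 229.7 and 14.7 to 182. For both, mfn2-/- replicate 4 was the lowest library, with 2 and 8 reads. Neither passed, at -1.60 (SE 0.90, limma adjusted p = 0.299) and -0.93 (SE 0.67, limma adjusted p = 0.420).

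The hypoxia targets outside glycolysis held the member with the smallest p. Ndrg1, a gene induced by low oxygen, iron loss and differentiation, had 848, 848, 470.4 and 608 normalized reads in wild-type and 1386, 1490.0, 1450.2 and 1860.0 in mfn2-/- libraries. The lowest mfn2-/- value was far above the highest wild-type value. The mean rose 2.23-fold, from 694 ± 187 (SD, n = 4) to 1547 ± 213, with a log2 change of 1.19 (SE 0.22 and limma adjusted p = 0.00419), which was 1.42 with Y-linked reads and 0.95 without. Its limma adjusted p stayed at or under 0.0164 when any 1 library was left out. Of its windows 14.6% are shared with 2 other annotated genes, neither of them a pseudogene.

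Tfrc encodes the transferrin receptor, which brings iron into the cell. It had 84.1, 58.1, 77.6 and 144 normalized reads in wild-type libraries and 183, 235, 282 and 427 in mfn2-/- libraries. No mfn2-/- library reached down to wild-type replicate 4, the highest of its group. The 3.10-fold rise of the mean, from 90.9 ± 36.9 (SD, n = 4) to 282 ± 105, gave a log2 change of 1.63 (SE 0.39 and limma adjusted p = 0.0172), with 0.97 in libraries with Y-linked reads and 2.30 in those without. Without mfn2-/- replicate 3 the change was 1.61 and the limma adjusted p 0.0518. None of the windows of Tfrc recurs elsewhere in the annotation.

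The other hypoxia targets did not pass. Bhlhe40, a circadian repressor, had 1794, 1516, 933 and 1109.6 normalized reads in wild-type and 2319.6, 2002, 1586 and 1488 in mfn2-/- libraries, with overlap. Its change of 0.49 (SE 0.23, limma adjusted p = 0.213) was 1.08 in libraries with Y-linked reads and -0.10 in those without, and this difference of 1.18 (SE 0.24) had a limma adjusted p of 0.0420. Its relative Bhlhe41 changed by 0.29 (SE 0.50, limma adjusted p = 0.768).

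Higd1a, a mitochondrial survival factor, had 0, 10.4, 20.4 and 28.8 normalized reads in wild-type and 34.0, 31.6, 47.2 and 66.0 in mfn2-/- libraries. Its groups did not overlap, but at this depth the change of 2.25 (SE 1.15) did not pass (limma adjusted p = 0.251), and 36.6% of its windows recur in other genes. Vegfa, the main signal for new vessels, had 328 to 648 normalized reads in wild-type libraries and 335 to 705 in mfn2-/- libraries (0.27, SE 0.29, limma adjusted p = 0.605). Adm, the vasodilator peptide adrenomedullin, had 54.5 to 134 and 1.83 to 86.0 (-1.83, SE 0.96, limma adjusted p = 0.262). Ero1l, an oxidase of the endoplasmic reticulum, and Car12, a carbonic anhydrase of the cell surface, changed by 0.050 (SE 0.68) and 0.12 (SE 0.95), with limma adjusted p of 0.973 and 0.955. Ankrd37 reached 12.4 normalized reads at most and was not tested.

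**Figure D5:**
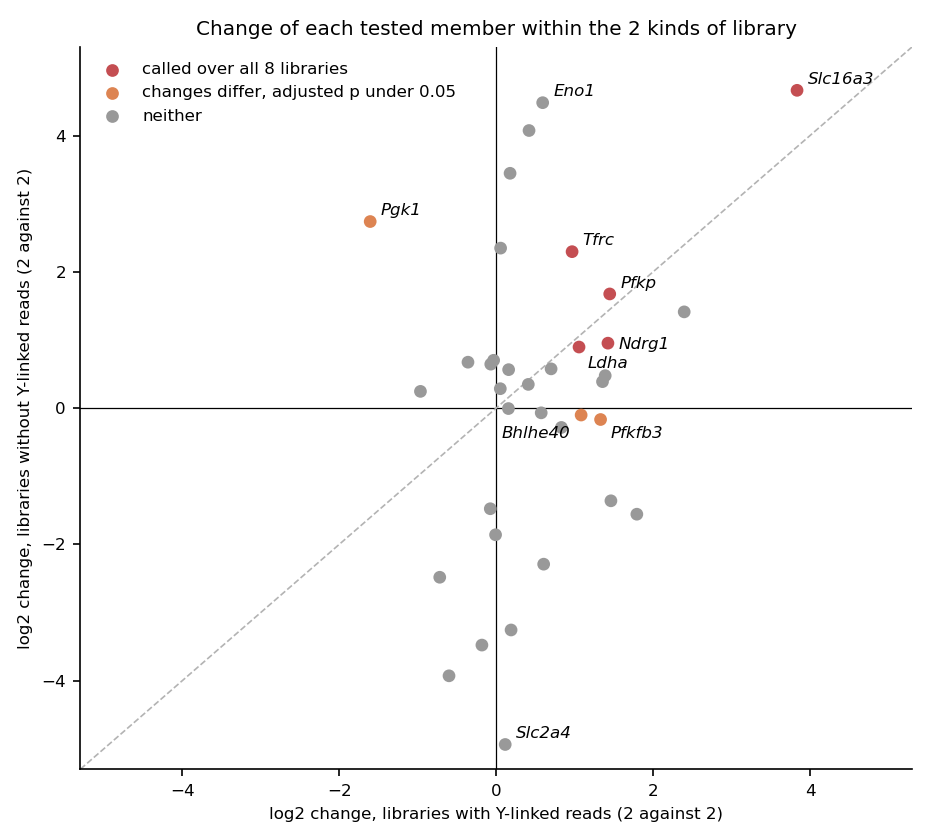
Log2 change of each tested gene in the libraries with Y-linked reads (x axis) against that in the libraries without (y axis), each from 2 mfn2-/- and 2 wild-type libraries, with equal changes on the dashed line. The 5 genes called over all libraries (red) are positive on both axes, which follows from their groups not overlapping. Pfkfb3, Pgk1 and Bhlhe40 (orange) are those whose changes differed between the kinds at a limma adjusted p under 0.05.

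Opposite signs in the 2 kinds were seen for 15 of the 36 genes, all of them not called over all libraries. The 5 called genes could not be among them, since their groups did not overlap. For 3 members, named in the plot of changes by kind, the interaction passed, as it did for 173 of all 11754 genes. An unadjusted limma interaction p under 0.05 was found for 9 members. The shares of all genes with opposite signs and with such a p were not computed, so neither count is read as a trait of the members. For the 5 genes that rose, the interaction had limma adjusted p between 0.475 for Tfrc and 0.930 for Pfkp.

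Neighbouring pathway genes were listed for context and are given by counts, to be read beside the 3.99% of all tested genes called higher, the 6.36% called lower and their median change of -0.16. None of 10 tested further glycolysis enzymes passed, and their median change was 0.20. Among 14 other glucose and lactate carriers 0 rose and 1 fell, with a median of -0.83: Slc16a6, a carrier of ketone bodies, went from 124 ± 127 (SD, n = 4) to 4.68 ± 4.27 normalized reads (-4.32, SE 1.13, limma adjusted p = 0.0288). That call was lost without any 1 of wild-type replicates 1, 2 and 3 or mfn2-/- replicates 1 and 2, at a limma adjusted p of 0.0523 to 0.0818.

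Among 14 other glycogen genes 0 rose and 2 fell, with a median of -0.74, and both break glycogen down. Gaa, the lysosomal glucosidase, went from 515 ± 34.0 (SD, n = 4) to 168 ± 24.1 normalized reads (-1.61, SE 0.23, limma adjusted p = 0.000654). Pygb, a glycogen phosphorylase, went from 227 ± 66.7 to 62.8 ± 25.7 (-1.88, SE 0.42, limma adjusted p = 0.0119) and did not pass without wild-type replicate 4 (limma adjusted p = 0.0614). Of 17 genes of the pentose phosphate, serine and hexosamine branches, whose median was -0.26, 1 rose and 0 fell. The gene that rose was Gfpt2, which starts hexosamine synthesis, so no pentose phosphate or serine gene was called. Gfpt2 had 894 ± 568 normalized reads in wild-type libraries and 2699 ± 1269 in mfn2-/- libraries (1.72, SE 0.46, limma adjusted p = 0.0310). Its change was 3.24 in libraries with Y-linked reads and 0.21 in those without. The call of Gfpt2 was lost without wild-type replicates 3 or 4 or mfn2-/- replicates 1 or 2 (limma adjusted p 0.0809 to 0.0938).

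The gene for the factor itself, Hif1a, had 634 to 1089 normalized reads in wild-type and 2319.9 to 3366 in mfn2-/- libraries (log2 change 1.85, SE 0.20, limma adjusted p = 7.97e-05). Of 50 other tested HIF1A targets, 3 rose (6%) and 6 fell (12%) and their median change was -0.21, beside 3.99% higher, 6.36% lower and a median of -0.16 over all tested genes. Those that moved and are most abundant were Errfi1, an inhibitor of the EGF receptor (3529 to 10320.0, change 1.62), Rbpj, the DNA-binding partner of Notch (939.8 to 1956, change 1.06), Cp, the copper oxidase ceruloplasmin (3431 to 2012, change -0.74), and Loxl2, which crosslinks collagen (1452 to 317, change -2.25), with limma adjusted p of 0.00304, 0.00338, 0.0467 and 0.000405. Cp kept its call only without wild-type replicate 4 among the fits that leave out 1 library, with a limma adjusted p of 0.0518 to 0.129 in the others.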

How the data were processed

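Libraries were made from total RNA with a stranded kit for low input. Group and replicate number of the 8 libraries, 4 wild-type and 4 mfn2-/-, came from their titles. The submitters' processing notes name Trim Galore, HISAT2, featureCounts, DESeq2 and the mouse build mm9. Their versions, the annotation and the strand setting are not given in the sources used here, so reads of overlapping or antisense genes cannot be told apart. The authors deposited 1 table of signal values, which are read counts per gene divided by 1 size factor for each library. This was tested on the values: in every library 100% of them were whole multiples of a step (tolerance 0.01 reads), and division by the step gave back whole reads.

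Genes with a mean of at least 10 were tested with limma 3.58.1 (R 4.3.3) after log2(value + 1), two-sided, with an intensity trend, no covariate and Benjamini-Hochberg adjustment at 0.05. For weak genes, changes on this scale depend on the added 1 and can differ from the fold of the means in either direction. Slc16a3 changed by 5.20 with 0.1 added in place of 1 and by 2.79 with 10 added. Car12 changed by 0.12 although its mfn2-/- mean was 0.715 of its wild-type mean. Depth sets the precision: 3 reads, the floor used for weak genes, are 1.60 to 6.82 normalized reads, and without molecular identifiers these are counts of reads and not of molecules. Alternatives were pseudocounts of 0.1 and 10, no filter, a minimum of 50, equal totals, upper-quartile and quantile scaling, a replicate block, limma with no trend or with library weights, Y-linked reads as a term, each library left out, and edgeR 4.0.16 and DESeq2 1.42.0 on whole reads. Replicates 1 and 2 against 3 and 4 as a term were added after seeing the data. The fits were also run on simulated data, and the results of those runs are not given here.

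The members and lists were chosen with earlier results of these data known. All members were named. Values in every library were given for called members, isoform pairs and members singled out after their values were seen (Gpi1, Pfkfb3, Pgk1, Eno1, Bhlhe40 and Higd1a). The called genes of a pathway list were named by highest mean, at most 4 a list, and 3 genes of each marker list that moved by highest wild-type mean. Shared windows and lengths come from GENCODE M21 and promoters from RefSeq (both GRCm38), and the table itself holds no coordinates. Of the 40 members, 36 had a listed promoter, and Slc2a3, Slc2a4, Ndrg1 and Bhlhe40 had none. Tables and figures were made with Python 3.11.15.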

Additional observations from a re-analysis of the deposited data

Results flagged for a closer look

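In 110 groups of 4 libraries, 1 library stood apart from the other 3 by Dixon's 95% criterion in 2, where chance gives about 5.5. One was Ldha in wild-type replicate 4, at 337 normalized reads, where the rest of the group had 551 to 562. The other was Aldoa in mfn2-/- replicate 4, at 929 against 1421 to 1518.

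For 3 members the change differed between libraries with and without Y-linked reads by limma's interaction test. The change with minus the change without was 1.498 for Pfkfb3 (adjusted p = 0.0219), -4.34 for Pgk1 (adjusted p = 0.0148) and 1.18 for Bhlhe40 (adjusted p = 0.0420). Among the genes named from the lists the same was true of Gfpt2 (3.03, adjusted p = 0.00112), Errfi1 (1.60, adjusted p = 0.00287) and Col3a1 (1.43, adjusted p = 0.0250). Replicates 1 and 2 against 3 and 4 and the presence of Y-linked reads cannot be told apart in these differences.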

How the results depend on the processing

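Of 784 values of members over 22 alternatives, most of them from members that were not called, 736 kept their direction and their side of the threshold. A call was lost 17 times: 8 times for Pfkp, 5 for Slc16a3, 2 for Tfrc, 1 for Ldha and 1 for Ndrg1. The number of members called higher, 5, was 1 with no trend and 12 with library weights, 2 to 5 when 1 library was left out, and 4 to 7 otherwise, and 0 were called lower in all 22. Calls over all genes, 1217, were 633 with no trend, 3037 with library weights and 671 to 1331 with 1 library left out. With no trend 17.9% of the calls were higher, against 38.5%. Quantile normalization moved the median of all genes by 0.29, to 0.13, and that of the members to 0.50. The minimum of 50, edgeR and leaving out mfn2-/- replicate 4 moved the former by 0.14, 0.11 and 0.13. Same-numbered libraries had deviations correlated at -0.11 to 0.04 over genes, and not all correlated best with their own number. No pairing by number was seen, but such correlations cannot exclude that same-numbered libraries were handled together. With the replicate number as a block 1043 genes and 4 members were called, without Pfkp (limma adjusted p = 0.0755). Slc16a3 lost its call with a pseudocount of 0.1 (limma adjusted p = 0.0785).

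In the lists, library weights gave 1 higher and 1 lower other glycolysis enzyme, 5 lower carriers and 1 higher glycogen gene. They also gave 3 higher and 2 lower pentose phosphate, serine and hexosamine genes, and 10 higher and 10 lower HIF1A targets. Lower carriers were 0 with a pseudocount of 0.1 or the block, and 2 with a pseudocount of 10 or DESeq2. One carrier was higher with quantile normalization. No trend left 0 higher HIF1A targets and 0 higher pentose phosphate, serine and hexosamine genes. Higher HIF1A targets were 5 with a pseudocount of 10, equal totals or upper-quartile scaling, 6 with quantile normalization or with replicates 1 and 2 against 3 and 4 as a term, and 7 with DESeq2, and lower ones were 3 with no filter. Leaving out 1 library gave 0 to 2 lower carriers, 1 to 2 lower glycogen genes and 0 to 1 higher pentose phosphate, serine and hexosamine genes. It also gave 2 to 6 higher and 3 to 6 lower HIF1A targets. Direction turned for 7 members that were not called: Aldoa with quantile normalization (-0.075), Pgk1 and Pgam1 with library weights (-0.86 and -0.16), Eno2 with quantile normalization and library weights (0.43 and 0.34), and Car12 with a pseudocount of 10, edgeR and DESeq2 (-0.022, -0.39 and -0.48). With 1 library left out the change was -0.16 to 1.09 for Pgk1, -0.22 to 0.45 for Pgam1, -0.19 to 0.55 for Bhlhe41, -0.47 to 0.59 for Ero1l and -0.42 to 0.76 for Car12. The marker Notch3 had -0.075 with quantile normalization and -0.085 to 0.21 with 1 library left out. The cause of these shifts was not tested. Depth limits the weak members, since 3 reads are up to 6.82 normalized reads.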
